A study of Homo sapiens with 5 samples.

Results

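The genes described here are 34 genes of mitosis and of the passage from G2 into mitosis: the cyclins and kinases that start division, the spindle checkpoint, the kinetochore, the mitotic motors, spindle proteins, the machinery of anaphase and 1 centriole gene. Each was taken by its gene symbol from an annotated Affymetrix array, and where several probe sets carried a symbol the one with the highest mean signal over the 5 arrays stood for the gene. All 34 were found among the 11963 genes with a single symbol, and 33 had signals above the floor used for weak signals, a log2 signal of 4.45, on all 5 arrays. The remaining gene, KIF23, a motor of the central spindle, stayed below that floor on all 5 arrays and entered no comparison. The cells were TF-1, a human erythroleukaemia line kept in GM-CSF and serum. They carried a GFP-marked MSCV retrovirus, either with DbSCL, a form of the haematopoietic transcription factor SCL (the product of TAL1) that cannot bind DNA, or empty (vector). After a night without growth factor they received a cytokine for 6 h, and each of the 5 combinations was read on 1 array. The combinations were DbSCL with Steel factor (SF, the ligand of c-Kit, 20 ng/mL), vector with SF (20 ng/mL), DbSCL with erythropoietin (Epo, dose not given in the labels), vector with Epo, and vector with GM-CSF (5 ng/mL). DbSCL was not combined with GM-CSF, and no array held unstimulated cells. Whether the transduced cells were a clone or a pool is not given in the sources used here.

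A cell enters mitosis when cyclin B with CDK1 becomes active, and the messages of most genes in this set are made in G2 under the activators B-MYB and FOXM1 and are held down in G1 by the DREAM complex. Their products then build the spindle, hold anaphase back until every chromosome is attached, and split the cell. In bulk RNA the level of these messages follows the share of cells in G2 and mitosis as well as the level per cell, and the arrays cannot tell these apart. Cell number, DNA content and cell division were not measured in the files used here.

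With 1 array per group there were no replicates, and no test was run and no p-value is given. A model that takes DbSCL to act alike under both cytokines would leave 1 residual degree of freedom, and was not fitted. Genes with a log2 difference of 1 or more (2-fold) were counted, and a lower threshold of 1.5-fold (0.58 on the log2 scale) is given beside it. An error of a single difference was estimated without replicates from how far the DbSCL difference under SF departed from that under Epo over 7918 genes. It was 0.19 on the log2 scale over all genes and ran from 0.13 to 0.24 over 10 bins of expression. This estimate includes any real difference between the cytokines and leaves out shifts common to many genes of an array. Of the 33 genes above the floor, 9 (27.3%) held the same value on at least 2 arrays, against 51.1% of all such genes. CCNB1, for example, was given the value 8.63 on 3 arrays.

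TAL1, the gene of SCL, was not clearly higher on the arrays labelled DbSCL. Its brightest probe set read 8.29 on DbSCL SF, 8.31 on vector SF, 8.31 on DbSCL Epo, 8.59 on vector Epo and 7.57 on vector GM-CSF. The other TAL1 probe set above the floor differed by 0.06 under SF and 0.19 under Epo between DbSCL and vector. Whether these probe sets lie in the part of TAL1 that the virus carries is not given in the sources used here, so the DbSCL label was not checked by its own gene. The arrays differed in their controls too. The mean of 18 hybridization control probe sets was 10.57 on DbSCL SF, 10.02 on vector SF, 9.78 on DbSCL Epo, 9.58 on vector Epo and 10.53 on vector GM-CSF. For beta-actin the signal at the 3' end minus that at the 5' end, a measure of RNA quality and labelling, was 3.33, 1.89, 3.01, 2.74 and 2.63 in that order of arrays. Of 10 measured TF-1 markers, among them CD34, KIT, GATA1 and TAL1, all 10 were above the floor on all arrays. Of 10 markers of other blood cells, 5 (CD3E, CD3D, CD79A, NCAM1 and ITGA2B) were above it on all arrays and 3 (CD14, PPBP and ELANE) on none. A signal above this floor therefore does not by itself mark the cell type.

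**Figure D1:**
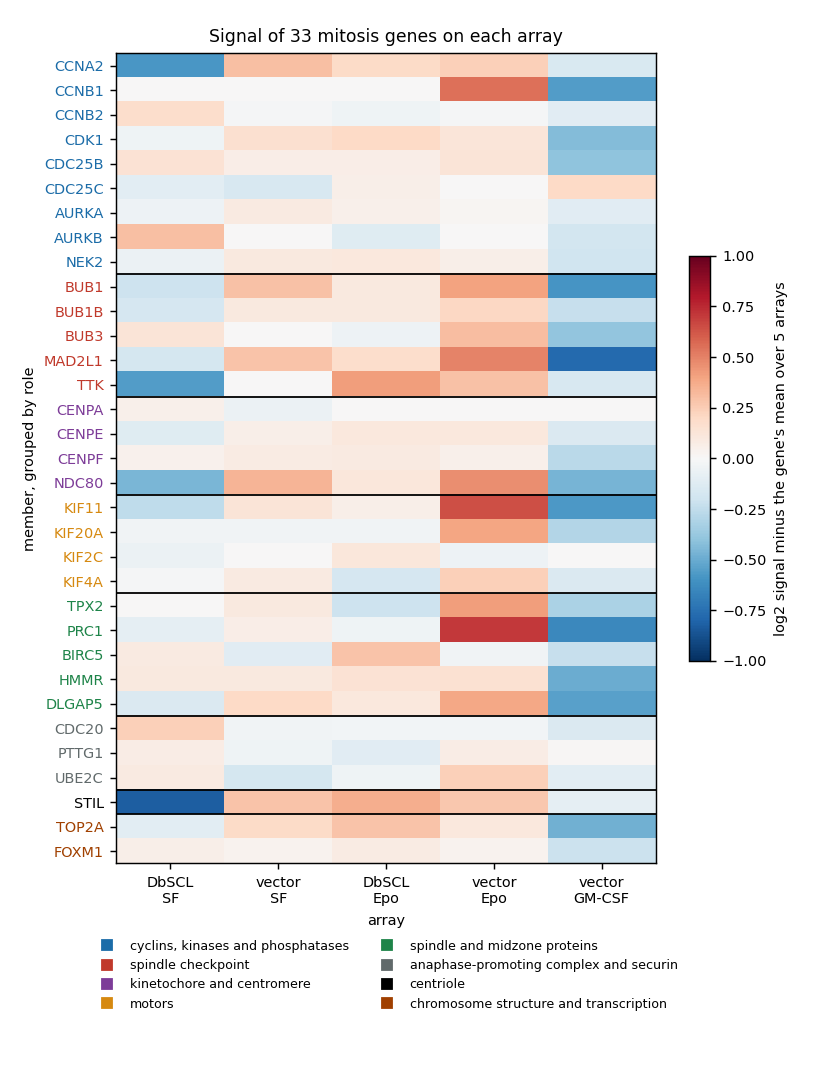
Log2 signal of each of 33 mitosis genes minus that gene's mean over the 5 arrays (colour), with arrays in columns and genes in rows grouped by role. PRC1, MAD2L1, KIF11 and CCNB1 are lowest on vector GM-CSF and highest on vector Epo, and STIL is lowest on DbSCL SF, at 5.57.

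In vector cells the mitosis genes were mostly higher under SF and under Epo than under GM-CSF. Under SF, 28 of 33 lay above 0 with a median log2 difference of 0.33, where the median over all 8553 genes compared was 0. Under Epo, 30 of 33 lay above 0 with a median of 0.39, again against 0 over 8581 genes. With quantile normalization these counts were 24 and 25, so the split was less one-sided, with medians of 0.17 and 0.25. MAD2L1 was the 1 gene of 33 counted under SF, where 0.573% of all genes were counted as higher, and with loess it was not counted (0.99). MAD2L1, PRC1, KIF11 and CCNB1 were the 4 counted under Epo, where 3.46% of all genes were. That count was 7 with the columns shifted to the same median and 3 with quantile normalization or loess. No member was counted as lower under either cytokine, against 0.0234% and 0.117% of all genes. At 1.5-fold, 9 were higher under SF (27.3% of 33, against 6.9% of all genes) and 12 under Epo (36.4%, against 13.2%). No member was 1.5-fold lower under SF, against 1.29% of all genes, or under Epo, against 2.45%. Both comparisons use the same GM-CSF array, so the second is not a repeat of the first.

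The signal level of the genes moved with this shift. In the best-expressed tertile of genes, which holds 23 of the 33, the median difference was 0.20 for SF and 0.27 for Epo, and in the weakest tertile it was -0.10 and -0.12. The vector GM-CSF array gave the lowest of the 5 values for 24 of the 33 mitosis genes (72.7%), for 51.0% of the best-expressed tertile and for 30.9% of all genes above the floor. On the SF and Epo arrays the hybridization controls were 0.51 and 0.95 lower than on GM-CSF, and the 28S ribosomal RNA signal 0.91 and 1.36 lower. The poly(A) controls were 0.07 and 0.43 higher, in the direction of the mitosis genes. The 3' minus 5' signal differed under SF by -0.74 for beta-actin and -0.61 for GAPDH, and under Epo by 0.11 and -0.14. The part of these controls and of signal level in the differences was not tested.

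**Figure D2:**
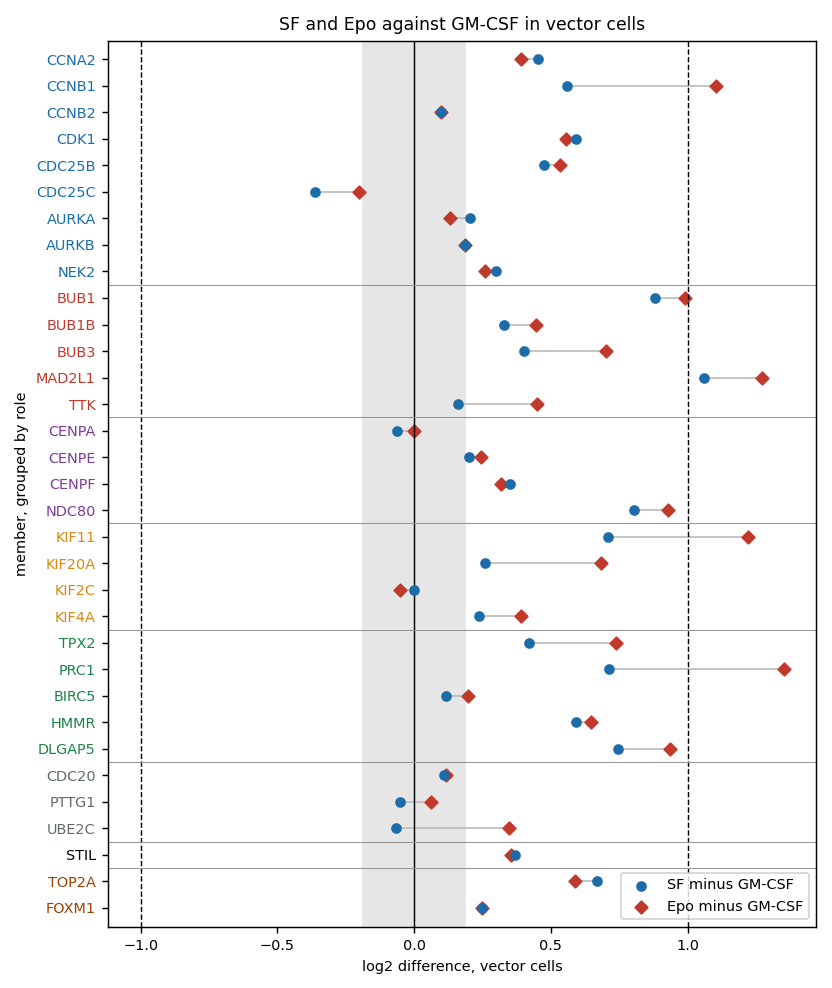
Log2 difference of each of 33 mitosis genes for SF minus GM-CSF (circles) and Epo minus GM-CSF (diamonds) in vector cells, with genes grouped by role. Dashed lines mark 2-fold and the grey band the estimated error of a single difference (0.19). MAD2L1 passes the line in both comparisons, and CCNB1, KIF11 and PRC1 pass it under Epo.

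The spindle checkpoint genes, which delay anaphase until all kinetochores are attached, all lay above 0 in both comparisons (5 of 5, medians of 0.40 for SF and 0.70 for Epo). MAD2L1 encodes MAD2, the protein that inhibits CDC20 at unattached kinetochores. Its log2 signal was 6.58 on the DbSCL SF array, 7.03 on vector SF, 6.92 on DbSCL Epo, 7.25 on vector Epo and 5.98 on vector GM-CSF. The vector GM-CSF array was thus the low one and all 4 others lay above it. The difference was 1.06 for SF (2.08-fold) and 1.27 for Epo (2.42-fold). BUB1, a checkpoint kinase, lay just outside the threshold under Epo at 0.99 and gave 0.88 under SF. Its second probe set above the floor gave -0.31 under Epo and -0.41 under SF, against the direction of the first. BUB3, which anchors BUB1 at the kinetochore, read 9.35, 9.23, 9.17, 9.53 and 8.83 in the same order of arrays. It differed by 0.40 under SF and 0.70 under Epo, and its 3 other probe sets gave 0.58 to 1.35 under Epo. BUB1B (BUBR1) gave 0.33 and 0.44, and TTK, the kinase MPS1 at the head of the checkpoint, 0.16 and 0.45.

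Of the 9 cyclins, kinases and phosphatases, 8 lay above 0 in each comparison, with medians of 0.30 for SF and 0.26 for Epo. CCNB1, the cyclin B1 that activates CDK1, read 8.63 on DbSCL SF, vector SF and DbSCL Epo alike, 9.17 on vector Epo and 8.07 on vector GM-CSF. Vector Epo was its high array and vector GM-CSF its low one. The difference was 0.56 for SF (1.47-fold) and 1.10 for Epo (2.15-fold). With quantile normalization the Epo value was 0.76 and with loess 0.83, both short of 2-fold. CDK1 itself gave 0.59 and 0.55, and its other probe sets 0.21 and 0.57 for SF and 0.65 and 0.98 for Epo. CCNA2, cyclin A2, gave 0.45 and 0.39 from its brightest probe set and 0.91 and 0.95 from the other. CCNB2, cyclin B2, stood at 0.10 in both comparisons, within the error. CDC25B, a phosphatase that activates CDK1, gave 0.47 and 0.53. CDC25C, another, gave -0.36 and -0.20 from signals close to the floor, between 4.53 and 4.89. AURKA, the spindle pole kinase, read 9.60 on DbSCL SF, 9.74 on vector SF, 9.70 on DbSCL Epo, 9.67 on vector Epo and 9.54 on vector GM-CSF, a range of 0.20. Other AURKA probe sets gave 0.22 and -0.03 for SF and 0.51 and 0 for Epo. AURKB, the kinase that corrects faulty attachments, gave 0.19 in both comparisons, and NEK2, a centrosome kinase, 0.30 and 0.26.

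Of the 4 kinetochore and centromere genes, NDC80 had the highest values in both comparisons. NDC80 encodes the subunit that binds microtubules. It read 5.81 on DbSCL SF, 6.61 on vector SF, 6.38 on DbSCL Epo, 6.74 on vector Epo and 5.81 on vector GM-CSF, so both DbSCL SF and vector GM-CSF were low. Its difference was 0.80 for SF and 0.93 for Epo. CENPA, the histone H3 variant that marks the centromere, ranged over 0.11 across all 5 arrays. CENPF read 7.11, 7.15, 7.16, 7.12 and 6.80 in the same order, with 0.35 for SF and 0.32 for Epo. CENPE, a kinetochore motor, gave 0.20 and 0.25 from signals below 5.

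Among the motors KIF11 (Eg5), which pushes the spindle poles apart, read 5.55 on DbSCL SF, 5.93 on vector SF, 5.86 on DbSCL Epo, 6.45 on vector Epo and 5.23 on vector GM-CSF. Vector Epo was the high array. The difference was 0.71 for SF (1.63-fold) and 1.22 for Epo (2.33-fold). KIF20A, which acts at the central spindle, gave 0.26 and 0.68, and KIF4A, a chromokinesin, 0.24 and 0.39. KIF2C, a microtubule depolymerase, read 9.35, 9.41, 9.52, 9.36 and 9.41, with its other probe set at 0.66 for SF and 0.34 for Epo.

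The 5 spindle and midzone genes had the highest group median under SF of the groups with at least 3 members (0.59), and 0.74 under Epo. PRC1, which bundles the microtubules of the central spindle, read 7.30 on DbSCL SF, 7.47 on vector SF, 7.35 on DbSCL Epo, 8.11 on vector Epo and 6.76 on vector GM-CSF. Vector Epo stood above the 3 other SF and Epo arrays, which lay close together. Its difference was 0.71 for SF (1.64-fold) and 1.35 for Epo (2.55-fold). TPX2, the activator of Aurora A, gave 0.42 and 0.74, DLGAP5 (HURP) 0.74 and 0.93, and HMMR 0.59 and 0.65. The other HMMR probe set gave 0.24 and 0.54, both below 1.5-fold. BIRC5, survivin of the chromosomal passenger complex, read 8.65, 8.45, 8.85, 8.53 and 8.34, with 0.12 for SF and 0.20 for Epo.

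The 3 genes of anaphase lay closest to 0, with medians of -0.05 for SF and 0.12 for Epo and no member at 1.5-fold. UBE2C, the ubiquitin-conjugating enzyme of the anaphase-promoting complex, read 10.44 on DbSCL SF, 10.17 on vector SF, 10.30 on DbSCL Epo, 10.59 on vector Epo and 10.24 on vector GM-CSF. CDC20, which activates that complex, gave 0.11 and 0.12, and PTTG1, securin, -0.05 and 0.06. TOP2A, the topoisomerase that untangles sister chromatids, read 8.42, 8.72, 8.81, 8.64 and 8.05, with 0.67 for SF and 0.59 for Epo. Its other probe set gave 0.29 for SF and 0.50 for Epo, both below 1.5-fold. FOXM1, the transcription factor of this gene programme, gave 0.25 in both comparisons. Between SF and Epo in vector cells no member was counted at 2-fold in either direction, against 0.012% of all genes higher and 0.0241% lower. PRC1 alone was 1.5-fold lower under SF (-0.64), where 1.15% of all genes were lower. None was 1.5-fold higher, against 0.349%, and the median over the 33 was -0.08.

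Promoters of the 4 genes counted under Epo are shown because genes of this programme are known to carry 2 short elements near their start, the CHR element bound by DREAM and B-MYB and the CCAAT box bound by NF-Y. Sequences are RefSeq windows of GRCh38.p14 from 250 bases before to 50 bases after the start, written 5′ to 3′ on the strand of the gene. Capitals mark 3 motifs searched on both strands, which do not overlap each other in the windows printed. The CHR element was taken as the letters TTTGAA, with TTCGAA as its other accepted form. Further forms of this element were not searched, so a window without these letters may still hold one. The box of NF-Y was taken as the letters CCAAT. The E2F-like motif was taken as the letters TTCCCGC, with TTGGCGC as its other accepted form.
MAD2L1 (chr4:120066799-120067098, minus strand): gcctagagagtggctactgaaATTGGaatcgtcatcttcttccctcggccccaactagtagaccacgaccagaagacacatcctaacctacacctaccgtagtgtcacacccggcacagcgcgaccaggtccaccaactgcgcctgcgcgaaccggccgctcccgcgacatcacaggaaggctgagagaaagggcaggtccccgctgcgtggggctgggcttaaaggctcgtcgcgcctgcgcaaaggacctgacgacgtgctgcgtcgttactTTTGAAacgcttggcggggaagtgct
PRC1 (chr15:90994486-90994785, minus strand): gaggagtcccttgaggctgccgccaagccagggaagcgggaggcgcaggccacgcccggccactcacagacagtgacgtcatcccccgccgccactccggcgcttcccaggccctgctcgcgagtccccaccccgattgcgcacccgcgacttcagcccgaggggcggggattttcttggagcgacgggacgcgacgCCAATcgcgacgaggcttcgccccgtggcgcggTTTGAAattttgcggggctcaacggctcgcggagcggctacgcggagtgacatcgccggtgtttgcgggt
KIF11 (chr10:92592880-92593179, plus strand): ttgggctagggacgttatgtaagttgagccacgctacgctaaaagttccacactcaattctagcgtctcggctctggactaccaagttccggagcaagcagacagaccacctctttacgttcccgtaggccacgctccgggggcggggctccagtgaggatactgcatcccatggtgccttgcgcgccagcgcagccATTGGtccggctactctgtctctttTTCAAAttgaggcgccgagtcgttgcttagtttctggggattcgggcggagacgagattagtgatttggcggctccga
CCNB1 (chr5:69166900-69167199, plus strand): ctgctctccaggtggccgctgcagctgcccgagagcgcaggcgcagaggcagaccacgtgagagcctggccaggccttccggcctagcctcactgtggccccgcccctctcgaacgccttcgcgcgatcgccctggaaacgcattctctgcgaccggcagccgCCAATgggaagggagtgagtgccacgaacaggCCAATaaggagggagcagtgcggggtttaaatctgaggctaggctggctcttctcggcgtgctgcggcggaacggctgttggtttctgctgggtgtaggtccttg

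KIF11 and PRC1 shared an arrangement. Counting bases from the start, with those before it negative, PRC1 had CCAAT at -53 to -49 and TTTGAA at -20 to -15. KIF11 had both on the other strand, at -53 to -49 and -28 to -23. CCNB1 had CCAAT at -87 to -83 and at -55 to -51 and neither of the CHR forms searched, TTTGAA and TTCGAA, in the window. MAD2L1 had TTTGAA at 25 to 30 and an inverted CCAAT at -229 to -225. Promoters were found for 27 of the 34 genes. CHR letters were in 16 of these (59.3%), against 16.4% of all 35116 promoters in the table and 12.4% of 9563 promoters of genes on the array. CCAAT was in 21 (77.8%), against 34.6% and 37.3%, and both together in 14 (51.9%), against 6.38% and 5.25%. E2F-like letters were in 5 (18.5%), against 9.23% and 13.4%. As a description with no test, the median Epo minus GM-CSF difference was 0.59 over 15 compared genes with CHR letters and 0.26 over 11 without. The ranges overlapped, from 0 to 1.35 with CHR letters and from -0.20 to 1.10 without. For CCAAT the same medians were 0.47 over 20 genes with it and 0.34 over 6 without. For E2F-like letters they were 0.35 over 5 genes with them and 0.44 over 21 without. A match of letters is not a binding site.

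**Figure D3:**
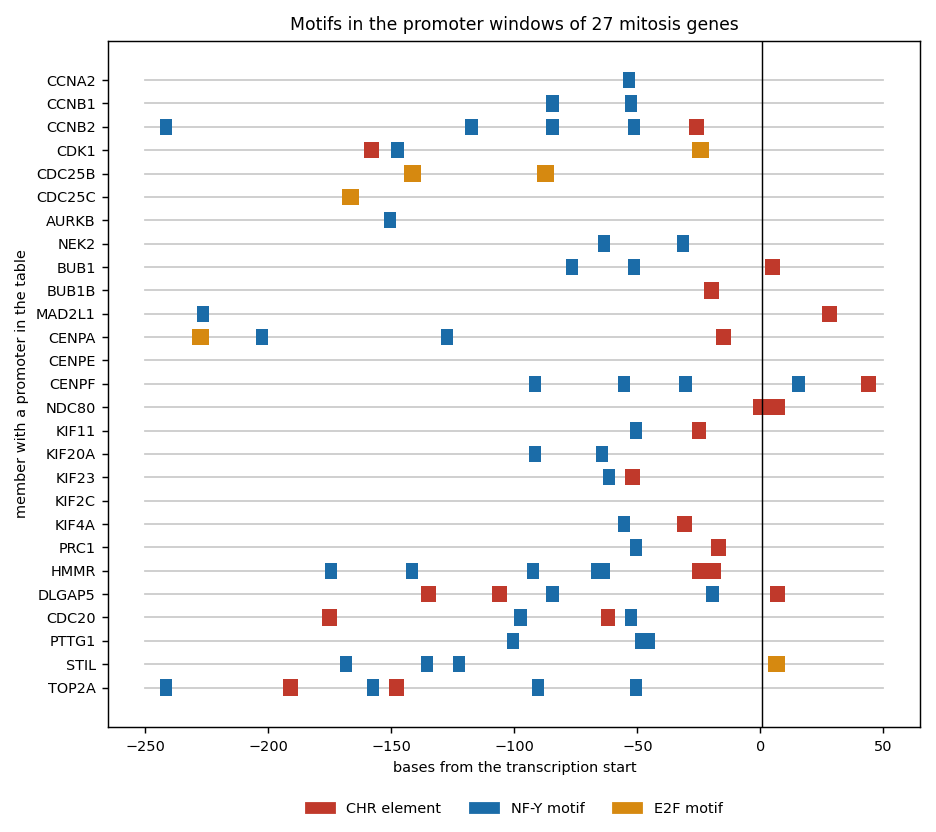
Position of CHR (red), NF-Y (CCAAT, blue) and E2F-like (orange) letters in the promoter windows of 27 mitosis genes, in bases from the transcription start (vertical line). In KIF11, PRC1, KIF4A and CCNB2 an NF-Y motif is followed by a CHR element just before the start, and CENPE and KIF2C hold none of the motifs.

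With DbSCL the mitosis genes as a group differed little from vector cells of the same cytokine, and a few members differed more. Under SF the median was -0.09 with 20 of 33 below 0, and under Epo -0.05 with 20 of 33 below 0. Under quantile normalization 17 and 15 were below 0 and the Epo median turned to 0.03, so no direction is read from the group. STIL was the 1 of 33 counted as lower under SF, where 0.343% of all genes were, and none was counted as higher, against 0.0118%. Under Epo no member was counted in either direction, against 0.275% of all genes lower and 0.0957% higher. At 1.5-fold, STIL, CCNA2 and NDC80 were lower under SF (9.09% of 33, against 3.68% of all genes), and PRC1 and TPX2 under Epo (6.06%, against 2.78%). None was 1.5-fold higher under SF, against 1.42%, or under Epo, against 0.694%. No member was 2-fold lower under both cytokines, where 0.0242% of all genes were, or 2-fold higher, where 0.0121% were. At 1.5-fold none was lower under both, where 0.556% were, or higher, where 0.0604% were. Below 0 under both cytokines were 11 of 33 (33.3%), against 25% of all genes. These 2 comparisons share no array.

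STIL was the 1 member counted at 2-fold with DbSCL, and CCNA2 (-0.89) and NDC80 (-0.80) were the nearest to it under SF. STIL encodes a protein needed to build new centrioles, and its gene is the neighbour of TAL1 on chromosome 1. It read 5.57 on DbSCL SF, 6.68 on vector SF, 6.75 on DbSCL Epo, 6.66 on vector Epo and 6.31 on vector GM-CSF. DbSCL SF was the low array, and the 3 other SF and Epo arrays lay within 0.1 of each other. The DbSCL difference was -1.10 under SF (2.15-fold) and 0.09 under Epo, and SF minus Epo was -1.18 in DbSCL cells (2.27-fold) against 0.02 in vector cells. In DbSCL cells 0.201% of all genes were counted as lower under SF than under Epo, and 0.0236% as higher. STIL was the 1 member among the 17 that were lower, and no member was higher. TTK lay just short of 2-fold there, at -0.98. At 1.5-fold STIL, TTK and CCNA2 were lower (9.09% of 33, against 2.8% of all genes) and none was higher, against 0.909%. STIL has 1 probe set on the array, so no second measurement was at hand. The promoter of STIL is printed because its motifs differ from those above. The start used by the promoter table lies 749 bases inside the annotated span of the gene, so the window is that of an inner start. The windows of 25 of the 27 genes lie at the beginning of the span, and AURKB (350 bases inside) is the other exception.
STIL (chr1:47314098-47314397, minus strand): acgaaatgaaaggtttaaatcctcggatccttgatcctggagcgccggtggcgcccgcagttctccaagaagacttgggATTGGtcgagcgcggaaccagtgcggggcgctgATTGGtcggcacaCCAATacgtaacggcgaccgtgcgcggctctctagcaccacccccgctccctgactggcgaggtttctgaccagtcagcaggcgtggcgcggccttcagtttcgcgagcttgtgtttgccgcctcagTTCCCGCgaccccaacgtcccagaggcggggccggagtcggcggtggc
It held CCAAT letters at -171 to -167, -138 to -134 and -125 to -121 and E2F-like letters at 3 to 9. Neither of the CHR forms searched was in it.

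**Figure D4:**
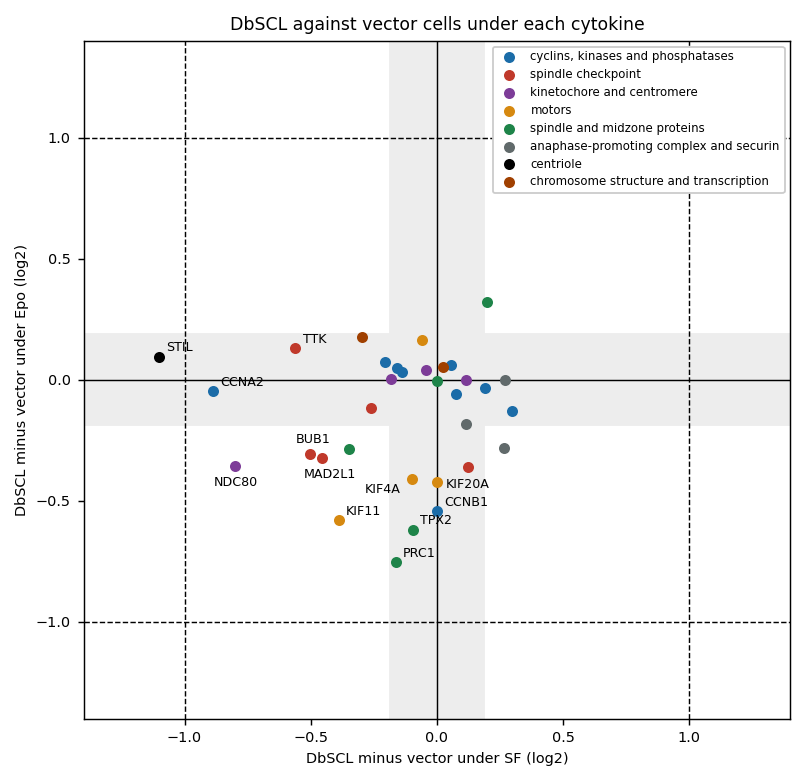
DbSCL minus vector log2 difference under SF (horizontal) and under Epo (vertical) for 33 mitosis genes, coloured by role. Dashed lines mark 2-fold and grey bands the estimated error of a single difference (0.19). STIL, CCNA2, NDC80 and TTK lie to the left with Epo values near or above -0.36, while PRC1, TPX2 and CCNB1 lie low, with SF values between -0.16 and 0.

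Of the 33 genes, some followed either of 2 patterns across the arrays, described here after their values were seen. In the first, DbSCL SF was the low array among the 4 SF and Epo arrays. By a margin of 0.24, the highest of the binned errors, this held for 9 of 33 (27.3%), against 11.2% of all genes above the floor and 16.1% of the best-expressed tertile. They were STIL, CCNA2, NDC80, TTK, BUB1, BUB1B, MAD2L1, KIF11 and DLGAP5, and 4 of these 9 belong to the spindle checkpoint. CCNA2, which drives S phase and G2, read 6.25 on DbSCL SF, 7.14 on vector SF, 7.03 on DbSCL Epo, 7.08 on vector Epo and 6.69 on vector GM-CSF. Its DbSCL difference was -0.89 under SF and -0.05 under Epo, and its second probe set gave -0.27 and -0.22. TTK read 6.16, 6.72, 7.14, 7.01 and 6.56 in the same order. It gave -0.56 under SF and 0.13 under Epo, and -0.98 for SF minus Epo in DbSCL cells. NDC80 gave -0.80 and -0.36, BUB1 -0.50 and -0.31, MAD2L1 -0.45 and -0.32, and KIF11 -0.39 and -0.58. The second BUB1 probe set above the floor gave 0.10 under SF and 0 under Epo, and did not follow the pattern. The opposite, DbSCL SF above those arrays, held for CDC20 and AURKB (6.06%, against 9.21% of all genes and 4.58% of the best-expressed tertile). On the DbSCL SF array the 3' minus 5' signal was 1.44 higher for beta-actin and 0.95 higher for GAPDH than on vector SF, and the hybridization controls were 0.55 higher. Against DbSCL Epo these values were 0.32, 0.09 and 0.79 higher. Vector SF had the lowest 3' minus 5' signal of the 5 arrays for beta-actin (1.89) and for GAPDH (1.58). The part of these controls in this pattern was not tested.

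In the second pattern vector Epo was the high array. By the same margin vector Epo exceeded all 4 others for CCNB1, KIF11, KIF20A, TPX2 and PRC1, which is 15.2% of 33, against 9.27% of all genes and 16.3% of the best-expressed tertile. The share is thus near that of well-expressed genes, and the members are given as a description. The DbSCL difference under Epo was -0.76 for PRC1 (1.69-fold), -0.62 for TPX2 (1.54-fold), -0.58 for KIF11, -0.54 for CCNB1 and -0.42 for KIF20A. Under SF it was -0.16 for PRC1, -0.09 for TPX2, -0.39 for KIF11 and close to 0 for CCNB1 and KIF20A. KIF11 was in both patterns. The pattern was read from the brightest probe set of each gene. Some members it leaves out had other probe sets with vector Epo as the high array, CDK1 among them. The other CDK1 probe sets read 6.98 and 7.55 on vector Epo. Their DbSCL differences under Epo were -0.79 and -0.42, against 0.07 from the brightest. The motors had a median of -0.42 under Epo and -0.08 under SF (4 compared), and the spindle checkpoint genes -0.31 and -0.45 (5 compared). The 3 anaphase genes were above 0 under SF (median 0.26) and below it under Epo (-0.18). Of these only UBE2C passed the estimated error of 0.19 under both, at 0.26 and -0.28. No reversal of the group is read from this. On vector Epo the hybridization controls were the lowest of the 5 arrays, 0.19 below those on DbSCL Epo. DbSCL Epo was 0.58 above vector Epo for 28S and 0.60 for 18S ribosomal RNA, and 0.27 and 0.39 above it for beta-actin and GAPDH in 3' minus 5' signal. The part of these controls in the values was not tested.

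Several genes were measured more than once on the same RNA. For 9 of the 33, at least 2 probe sets were above the floor, and the median range between probe sets of a gene was 0.42 for Epo minus GM-CSF, where the median over the 33 genes was 0.39. It was 0.44 for DbSCL minus vector under SF, where that median was -0.09. For DbSCL minus vector under Epo it was 0.31, where that median was -0.05. There the probe sets of CDK1 lay furthest apart, by 0.86. For Epo minus GM-CSF the probe sets of BUB1 lay 1.30 apart, the widest of the 9. BUB3, whose brightest probe set gave 0.12 for DbSCL under SF, had -0.52, -0.41 and -0.12 in the others. The 5 genes counted at 2-fold in any comparison, MAD2L1, PRC1, KIF11, CCNB1 and STIL, have 1 probe set each, so none of these counts has a second probe set behind it.

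**Figure D5:**
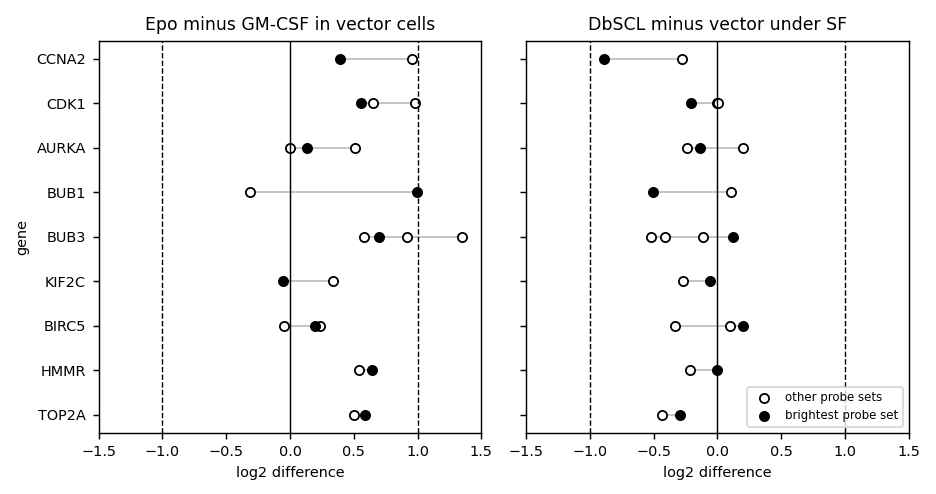
Log2 difference of every probe set above the floor for the 9 genes with several, for Epo minus GM-CSF in vector cells (left) and DbSCL minus vector under SF (right). Filled points are the probe sets that stood for the gene, open points the others, and dashed lines mark 2-fold. BUB1 spans the widest range on the left, from -0.31 to 0.99.

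Other genes of mitosis came from a list of 56, chosen from general knowledge with earlier results of these data known. Their medians against GM-CSF were above 0. Of 47 compared, 37 lay above 0 under SF (median 0.21) and 35 under Epo (median 0.23). SMC4, a condensin subunit that compacts chromosomes, was the 1 of 47 counted under SF (1.08), where 0.573% of all genes were counted. CKAP2 (1.35), KIF15 (1.21), KPNA2 (1.18) and the condensin gene SMC2 (1.03) were the 4 of 47 counted under Epo, where 3.46% were. The list medians lie near those of the best-expressed tertile, 0.20 and 0.27. KIF15 is a spindle motor that works beside KIF11, and KPNA2 a nuclear import receptor. With DbSCL none of the 47 was counted as lower under either cytokine, against 0.343% and 0.275% of all genes. At 1.5-fold, 5 of 47 were lower under SF and 2 under Epo, against 3.68% and 2.78% of all genes. None of the 47 was 1.5-fold higher, against 1.42% and 0.694%. CKAP2, a spindle microtubule protein, read 6.01 on DbSCL SF, 6.42 on vector SF, 6.36 on DbSCL Epo, 7.28 on vector Epo and 5.93 on vector GM-CSF, with vector Epo as the high array as for PRC1. Its DbSCL difference was -0.41 under SF and -0.91 under Epo. Of 6 compared centriole and centrosome genes other than STIL, none was 1.5-fold different with DbSCL under either cytokine, and the median under SF was -0.01. At a background of 3.68% lower under SF and 2.78% under Epo, a count of 0 in 6 shows nothing particular to STIL. The 8 compared genes of the anaphase-promoting complex and its regulators had medians of 0.10 under SF and 0.40 under Epo. The list for G1/S and DNA replication, which come before G2, had medians of 0.30 under SF and 0.49 under Epo (33 compared), beside 0.33 and 0.39 for the mitosis genes. MCM10 (1.34), a factor of replication start, and RFC4 (1.01), a subunit of the clamp loader, were counted under Epo and none under SF, 2 and 0 of 33 against 3.46% and 0.573% of all genes. The difference between the gene sets was not tested.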

How the data were processed

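The authors deposited log2 signals, one for each probe set on each of 5 arrays. No label names the scale, which was taken from the range of the values. The summary method, its software and any normalization between arrays are not given in the sources used here. Values were used as deposited. Of 22215 probe sets other than 68 controls, 19071 had a single symbol in the platform annotation and gave 11963 genes. The floor was the 40th percentile of all values, and lower values were set to it. Genes at the floor on both arrays of a comparison were left out. Differences were taken between single arrays in 6 comparisons, with no test. Alternatives were quantile, median and loess normalization (span 0.3), other choices of probe set, other floors and 1.5-fold. The counting step was tested on simulated data. Members, gene lists and sub-groups were chosen with earlier results of these data known. Array values were given for members counted at 2-fold and, per sub-group, for the one with the largest difference and the one with the highest mean signal. The array values of CCNA2, TTK, CKAP2 and TAL1, and the differences of the other members, were added after values were seen. Of the further gene lists, genes counted at 2-fold were named. Promoter windows came from a RefSeq table of GRCh38.p14. Python 3.11.15 with numpy 2.4.6, pandas 2.3.3 and statsmodels 0.14.6 was used. For arrays, their number, here 1 per group, limits the precision.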

Additional observations from a re-analysis of the deposited data

Results flagged for a closer look

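STIL had DbSCL differences of opposite sign under the 2 cytokines, -1.10 under SF and 0.09 under Epo. Members of opposite sign were listed only where 1 of the values passed 2-fold. The difference between them was -1.20 on the log2 scale, and the same -1.20 separates SF minus Epo in DbSCL cells from SF minus Epo in vector cells. It rests on 4 arrays, 1 per group, and was not tested. The value under Epo is within the estimated error of 0.19, so it does not show a difference in the other direction. Single arrays far from others of their group could not be looked for, since each group had 1 array.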

How the results depend on the processing

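The counts moved by over 1.5 times, or to or from 0, in 9 cases among the alternatives run. Shifting the columns to the same median gave 7 members higher under Epo than GM-CSF in place of 4, and 2 in place of 1 lower under SF than Epo in DbSCL cells. Quantile normalization and loess each gave 3 in place of 4 under Epo. With loess, 0 members were higher under SF than GM-CSF in place of 1, since MAD2L1 came to 0.99. CCNB1 under Epo was no longer 2-fold with quantile normalization (0.76) or loess (0.83), and NDC80 under Epo was 2-fold with the median shift (1.02). At 1.5-fold, 9 and 12 members were higher than under GM-CSF with SF and Epo. At that threshold 1 and 3 were lower under SF than Epo in vector and DbSCL cells, and 3 and 2 were lower with DbSCL under SF and Epo. STIL stayed counted under SF in all alternatives. Group medians ran from 0.17 to 0.40 for SF and from 0.25 to 0.48 for Epo against GM-CSF. For DbSCL they ran from -0.14 to -0.00 under SF and from -0.13 to 0.03 under Epo. Each moved by less than 0.19, but that is the estimated error of a single gene's difference and not that of a group median. No paired analysis was possible because each group had 1 array.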
